A study of Mus musculus with 4 samples.

Results

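The genes described here are 44 genes of the lysosome, of 25655 genes in the files. They code for cathepsins and legumain (10 genes), other acid hydrolases (10), proteins of the lysosomal membrane, cofactors and lipid transfer proteins (8), the V-ATPase proton pump (14, with 5 subunits of the V0 and 7 of the V1 part and 2 accessory proteins) and the transcription factors TFEB and TFE3 (2). They were taken by name from a list, and all 44 names were found. RNA-Seq was performed on neutrophils (CD45.2+CD11b+Ly6G+) sorted from hearts on day 3 after myocardial ischemia and reperfusion (MI/R), in which the left anterior descending artery is tied for 60 minutes and then released. There were 4 libraries, 1 per group, each from a pool of 8 male mice, 8 to 12 weeks old, on the C57BL/6 background. WT mice gave a SiglecF hi and a SiglecF lo pool, and so did *Cd300a-/-* mice, in which the gene of the inhibitory receptor CD300a is knocked out. In the labels, the SiglecF hi sort is SiglecF+ and the SiglecF lo sort SiglecF-. The depth, as total counts per library, was 19278243 (WT) and 17632989 (*Cd300a-/-*) for SiglecF hi cells and 9631901 (WT) and 10988619 (*Cd300a-/-*) for SiglecF lo cells. Since every group is a single library, no P value is given and the values describe these libraries.

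Lysosomes are acidic organelles in which proteins, lipids, glycans and nucleic acids taken up or turned over by the cell are broken down. The V-ATPase pumps protons into them through its membrane part V0, driven by ATP hydrolysis in its cytosolic part V1, and most of the hydrolases work best at the low pH that results. TFEB and TFE3 bind CACGTG-type sites in promoters of many lysosomal genes. Neutrophils store proteases in granules made during their development, and phagocytes use lysosomes to digest engulfed cells.

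Levels are the deposited TPM, a measure per gene length that lets genes be compared with each other. Ratios are log2((TPM + 1) ratio), in which the added 1 draws genes of low TPM towards 0, with a 95% counting interval from the counts of both libraries. The interval covers counting error only, because reads carried no molecular identifiers and each pool gives a single value for its mice. A gene was counted as higher or lower past a log2 ratio of 0.5, and the same count over the 6523 genes with a mean TPM over 10 is the background. Positions are those of the files, on GRCm39 per the submitters' processing notes.

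The knocked-out gene was checked first. *Cd300a* (ENSMUSG00000034652, chromosome 11 from 114780867 to 114795480) was at 163 TPM in the WT SiglecF hi library, from 6640 counts, and at 127 TPM in the WT SiglecF lo library, from 3024 counts. The knockout libraries held 27 counts of it (SiglecF hi, 0.74 TPM) and 28 counts (SiglecF lo, 1.06 TPM). Between the genotypes its log2 ratio came to -6.56 (95% counting interval -6.79 to -6.32) for the SiglecF hi sort and -5.95 (-6.23 to -5.67) for the SiglecF lo sort, so both knockout libraries carried almost none of its RNA. *Siglecf*, which codes for the sorted surface protein, was at 354 TPM (WT) and 405 TPM (*Cd300a-/-*) in SiglecF hi cells, next to 11.3 TPM (WT) and 15.3 TPM (*Cd300a-/-*) in SiglecF lo cells. *Ly6g*, the neutrophil marker of the gate, was at 11.1 TPM (WT) and 41.9 TPM (*Cd300a-/-*) in SiglecF hi cells, next to 330.4 TPM (WT) and 889 TPM (*Cd300a-/-*) in SiglecF lo cells. Its RNA was thus low in the SiglecF hi libraries, although the sort required the surface protein.

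All 44 genes had a mean TPM over 10. *Ctsk* and *Atp6v0d2* were under 10 TPM in both SiglecF lo libraries and passed through the SiglecF hi libraries, so that the filter favoured them being higher there. The 44 genes held 3.49% of all TPM in WT and 3.00% in *Cd300a-/-* SiglecF hi neutrophils, against 1.63% and 1.38% in the SiglecF lo neutrophils. Cathepsins and legumain summed to 18797 TPM (WT) and 15644 TPM (*Cd300a-/-*) in SiglecF hi cells, next to 7771 TPM (WT) and 6118 TPM (*Cd300a-/-*) in SiglecF lo cells. Other hydrolases summed to 2380.2 TPM (WT) and 2182 TPM (*Cd300a-/-*) in SiglecF hi cells, next to 1125 TPM (WT) and 1047 TPM (*Cd300a-/-*) in SiglecF lo cells. Membrane proteins, cofactors and lipid transfer proteins summed to 9012 TPM (WT) and 7417 TPM (*Cd300a-/-*) in SiglecF hi cells, next to 3809 TPM (WT) and 3520.2 TPM (*Cd300a-/-*) in SiglecF lo cells. The V-ATPase genes summed to 4672 TPM (WT) and 4634 TPM (*Cd300a-/-*) in SiglecF hi cells, next to 3507 TPM (WT) and 3002 TPM (*Cd300a-/-*) in SiglecF lo cells. The SiglecF hi to SiglecF lo fold of these sums in WT was 2.42 for cathepsins and legumain, 2.12 for other hydrolases, 2.37 for membrane proteins and cofactors and 1.33 for the V-ATPase, and in *Cd300a-/-* it was 2.56, 2.08, 2.11 and 1.54. As log2, the V-ATPase folds were 0.41 in WT and 0.63 in *Cd300a-/-*. The median log2 ratio of all 6523 genes was near them, at 0.53 and 0.61.

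**Figure D1:**
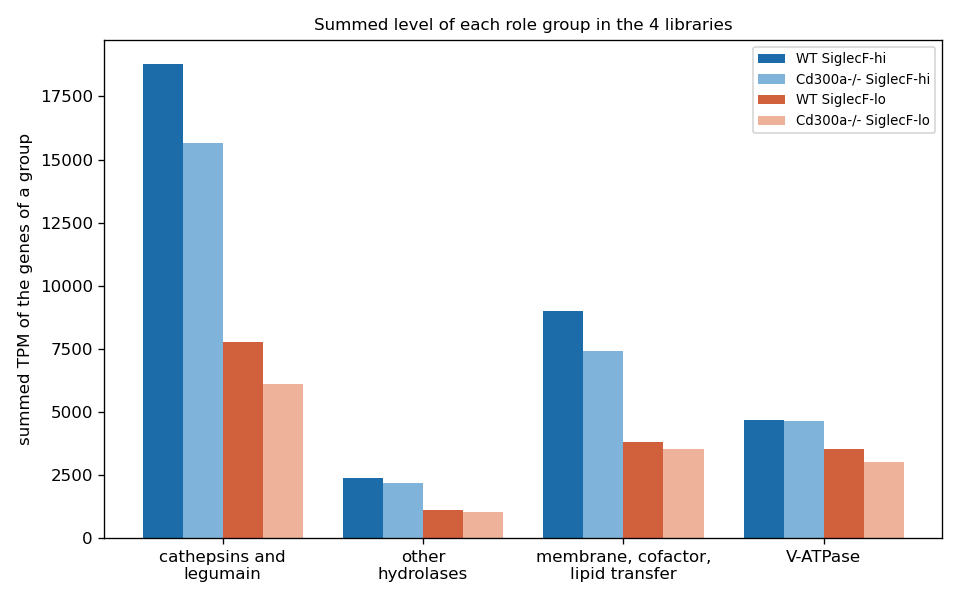
Bars show the summed TPM of the genes of each role group in each of the 4 libraries, 1 library per bar, with no replicate error. In WT the bars of cathepsins and legumain reach 18797 TPM (SiglecF hi) and 7771 TPM (SiglecF lo), and those of the V-ATPase 4672 TPM (SiglecF hi) and 3507 TPM (SiglecF lo).

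The first comparison asks how the SiglecF hi differ from the SiglecF lo neutrophils. In WT, 32 of 44 genes were higher in SiglecF hi neutrophils past 0.5 and 0 were lower, while 51.9% of all 6523 genes were higher and 7.47% lower. In *Cd300a-/-*, 33 of 44 were higher and 0 lower, against 56.6% and 7.97% of all genes. *S100a8* and *S100a9* alone took 13.8% and 17.3% of the TPM of the WT and *Cd300a-/-* SiglecF lo libraries, against 2.41% and 2.78% of the SiglecF hi libraries. The median ratio of all 6523 genes was 0.53 in WT and 0.61 in *Cd300a-/-*, the source of which was not tested, and ratios centred on that median are given beside the others. After centring, 21 of 44 genes were higher past 0.5 and 2 lower in WT, with 19.3% and 20.9% of all genes. In *Cd300a-/-* it was 18 higher and 3 lower, with 21.2% and 23.6% of all genes. The 44 genes had a median of 0.95 (WT) and 1.02 (*Cd300a-/-*), or 0.42 and 0.40 centred. Without *Ctsk* and *Atp6v0d2*, 19 of 42 genes in WT and 16 of 42 in *Cd300a-/-* were higher past 0.5 after centring. In pools of sorted cells, fewer cells of a type and less RNA per cell cannot be told apart.

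**Figure D2:**
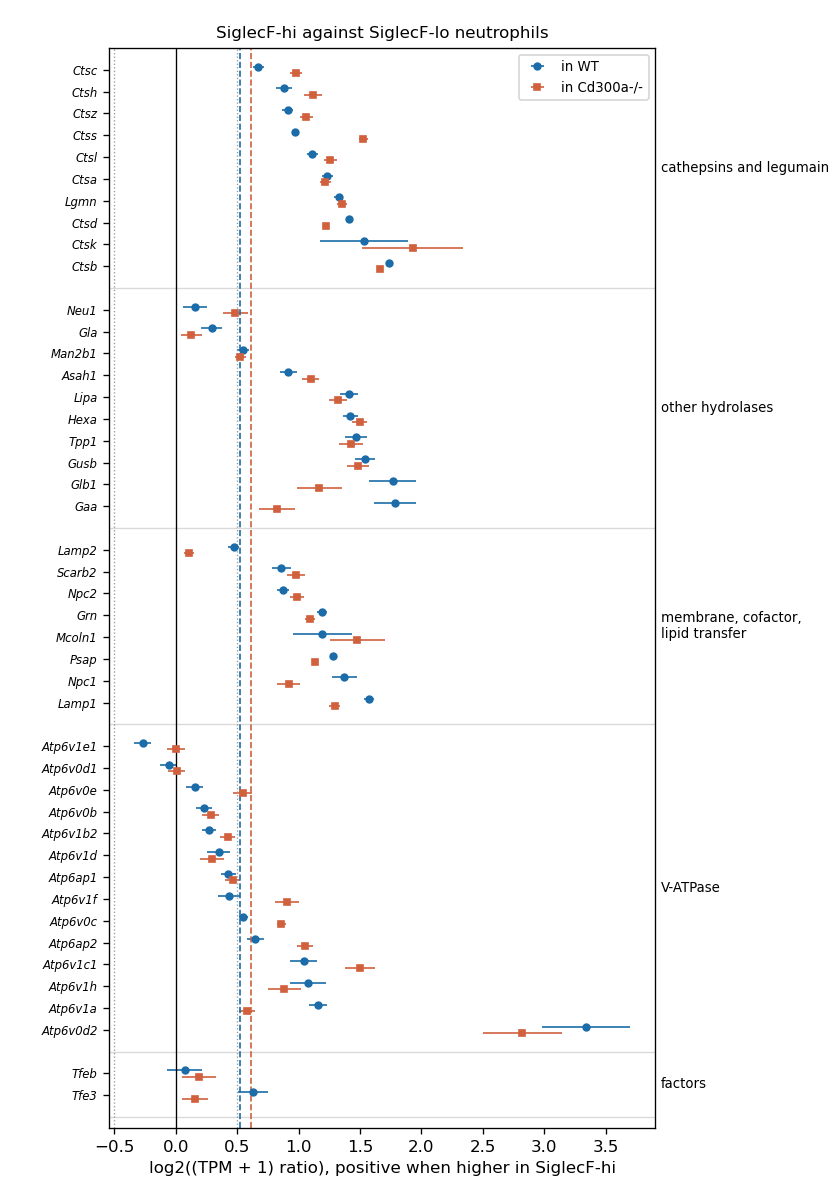
Each row is a gene, with its log2((TPM + 1) ratio), positive when higher in SiglecF hi cells, for WT (circles) and *Cd300a-/-* (squares) and its 95% counting interval. Dashed lines mark the median of all 6523 genes in each genotype and dotted lines mark 0.5 in either direction. The cathepsins lie right of the dashed lines and several V-ATPase subunits left of them, with *Atp6v0d2* farthest right at 3.34 in WT.

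All 10 cathepsin and legumain genes were higher in SiglecF hi neutrophils in both genotypes, with a median ratio of 1.17 in WT and 1.24 in *Cd300a-/-*, or 0.64 and 0.63 centred. All 10 ratios were also above 0 after centring and with TMM-scaled CPM, and after centring 6 in WT and 8 in *Cd300a-/-* were past 0.5. *Ctsk*, which passed the expression filter through the SiglecF hi libraries, is among the genes in each of these counts. Of all 6523 genes 51.9% (WT) and 56.6% (*Cd300a-/-*) were higher past 0.5, or 19.3% and 21.2% centred. *Ctsd* (ENSMUSG00000007891, chromosome 7 from 141929648 to 141941775), an aspartic protease and the most abundant of the 44 genes, was at 6716 TPM (WT) and 5407 TPM (*Cd300a-/-*) in SiglecF hi cells, next to 2532 TPM (WT) and 2318 TPM (*Cd300a-/-*) in SiglecF lo cells. Its ratio was 1.41 (95% counting interval 1.39 to 1.43) in WT and 1.22 (1.20 to 1.24) in *Cd300a-/-*. *Ctsb* (ENSMUSG00000021939, chromosome 14 from 63359911 to 63383372), a cysteine protease, was at 3618 TPM (WT) and 2988 TPM (*Cd300a-/-*) in SiglecF hi cells, next to 1088 TPM (WT) and 941 TPM (*Cd300a-/-*) in SiglecF lo cells. With a ratio of 1.73 (1.71 to 1.75) in WT and 1.67 (1.65 to 1.69) in *Cd300a-/-*, *Ctsb* had the largest ratio of the group in WT, and *Ctsk*, known from bone resorption, had the largest in *Cd300a-/-*. *Ctss*, a cysteine protease of antigen-presenting cells, was at 3974 TPM (WT) and 3417 TPM (*Cd300a-/-*) in SiglecF hi cells, next to 2023 TPM (WT) and 1184 TPM (*Cd300a-/-*) in SiglecF lo cells. Its ratio was 0.97 (0.95 to 1.00) in WT and 1.53 (1.50 to 1.56) in *Cd300a-/-*. *Lgmn*, which codes for legumain, a protease that cuts after asparagine, was at 1504 TPM (WT) and 1248 TPM (*Cd300a-/-*) in SiglecF hi cells, next to 599.8 TPM (WT) and 488 TPM (*Cd300a-/-*) in SiglecF lo cells. *Ctsz*, a carboxypeptidase, was at 1173 TPM (WT) and 1002 TPM (*Cd300a-/-*) in SiglecF hi cells, next to 624 TPM (WT) and 479 TPM (*Cd300a-/-*) in SiglecF lo cells. Each of these 5 genes was higher in both SiglecF hi libraries than in either SiglecF lo library.

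Lower levels were found for the other cathepsins of the list. In WT SiglecF hi, *Cd300a-/-* SiglecF hi, WT SiglecF lo and *Cd300a-/-* SiglecF lo neutrophils, in this order, *Ctsa*, a carboxypeptidase that also protects neuraminidase and β-galactosidase, was at 633, 569, 269 and 244 TPM. *Ctsh*, an aminopeptidase, was at 497, 439.9, 269 and 202 TPM. *Ctsc*, which activates the serine proteases of neutrophil granules, was at 338, 303, 212 and 153 TPM and had the smallest WT ratio of the group, 0.67 (0.14 centred). *Ctsl*, a cysteine protease, was at 319, 249, 147 and 104 TPM. *Ctsk* was at 23.9, 20.1, 7.59 and 4.55 TPM, with 59 and 39 counts in the SiglecF lo libraries, so that its ratios of 1.53 (1.17 to 1.89) and 1.93 (1.52 to 2.34) were the least precise of the group. Genes of azurophil granules, which neutrophils make early in their development, were low. The 4 genes *Mpo*, *Elane*, *Prtn3* and *Ctsg* summed to 11.9, 17.2, 4.50 and 14.3 TPM in the same order, and *Prtn3*, the most abundant, was at 11.7, 14.3, 2.77 and 10.9 TPM.

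Of the other hydrolases, 8 of 10 were higher in SiglecF hi neutrophils past 0.5 in WT and 8 of 10 in *Cd300a-/-*, and 6 and 5 after centring. Of all genes it was 51.9% and 56.6%, or 19.3% and 21.2% centred. *Hexa*, which takes part in ganglioside breakdown, was the most abundant, at 728 TPM (WT) and 665 TPM (*Cd300a-/-*) in SiglecF hi cells, next to 271 TPM (WT) and 235 TPM (*Cd300a-/-*) in SiglecF lo cells. *Gaa*, which breaks down glycogen, was at 43.8, 33.7, 12.01 and 18.6 TPM, in the order used above, and *Glb1*, the β-galactosidase, at 52.4, 37.8, 14.7 and 16.2 TPM. Their ratios were 1.78 (1.62 to 1.95) and 1.77 (1.58 to 1.96) in WT, the largest of this group, and 0.83 (0.68 to 0.97) and 1.17 (0.98 to 1.35) in *Cd300a-/-*. *Gusb*, the β-glucuronidase, was at 204, 170.5, 69.5 and 60.3 TPM. *Lipa*, the acid lipase that releases cholesterol from its esters, was at 327, 272, 122 and 108 TPM, and *Tpp1*, a tripeptidyl peptidase, at 179, 145, 64.0 and 53.2 TPM. These 3 genes had ratios between 1.32 and 1.54. *Asah1*, the acid ceramidase, was at 294, 284, 155 and 132 TPM, with ratios of 0.92 in WT and 1.10 in *Cd300a-/-*.

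Not all hydrolases followed. *Man2b1*, an α-mannosidase, was at 331, 350.0, 226 and 243 TPM, and its ratios of 0.55 and 0.53 became 0.02 in WT and -0.09 in *Cd300a-/-* after centring. *Gla*, an α-galactosidase, was at 112, 103, 91.4 and 94.6 TPM, and *Neu1*, a sialidase, at 110.4, 120.4, 98.8 and 85.7 TPM. Their ratios in WT were 0.29 and 0.16, or -0.23 and -0.37 centred, so that both lay below the all-gene median. In *Cd300a-/-* the centred ratios were -0.49 and -0.13.

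Among membrane proteins, cofactors and lipid transfer proteins, 7 of 8 in WT and 7 of 8 in *Cd300a-/-* were higher past 0.5, and 5 and 3 after centring, against 51.9% and 56.6% of all genes, or 19.3% and 21.2% centred. *Psap*, the precursor of the saposins that help hydrolases act on sphingolipids, was at 5664 TPM (WT) and 4425 TPM (*Cd300a-/-*) in SiglecF hi cells, next to 2330.1 TPM (WT) and 2019 TPM (*Cd300a-/-*) in SiglecF lo cells. It was the most abundant of the group, with a ratio of 1.28 (1.26 to 1.30) in WT and 1.13 (1.11 to 1.15) in *Cd300a-/-*. *Lamp1*, a main glycoprotein of the lysosomal membrane, was at 1256 TPM (WT) and 1093 TPM (*Cd300a-/-*) in SiglecF hi cells, next to 421 TPM (WT) and 446 TPM (*Cd300a-/-*) in SiglecF lo cells, with a ratio of 1.57 (1.53 to 1.62) in WT and 1.29 (1.25 to 1.34) in *Cd300a-/-*. *Lamp2*, its paralog, was at 303 TPM (WT) and 326 TPM (*Cd300a-/-*) in SiglecF hi cells, next to 218 TPM (WT) and 302 TPM (*Cd300a-/-*) in SiglecF lo cells. Its ratios of 0.47 (0.43 to 0.52) and 0.11 (0.07 to 0.15) were the lowest of the group, and centred they were -0.05 and -0.51. *Grn*, the precursor of progranulin peptides, was at 1101, 939, 482 and 439 TPM, in the order used above. *Npc2*, which hands cholesterol to NPC1, was at 442, 376, 241 and 189.7 TPM. The ratios of *Grn* and *Npc2* lay between 0.87 and 1.19. *Npc1*, the cholesterol transporter of the membrane, was at 85.7, 71.8, 32.5 and 37.6 TPM and had a ratio of 1.37 in WT and 0.92 in *Cd300a-/-*. *Scarb2*, the receptor that brings β-glucocerebrosidase to lysosomes, was at 128, 143, 70.4 and 72.0 TPM, and *Mcoln1*, a calcium channel, at 31.7, 42.3, 13.3 and 14.5 TPM. Their ratios lay between 0.86 and 1.48.

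Of the proton pump, 6 of 14 genes were higher in SiglecF hi cells past 0.5 in WT and 8 of 14 in *Cd300a-/-*, near the 51.9% and 56.6% of all genes. The median ratio of its 14 genes was 0.43 in WT and 0.56 in *Cd300a-/-*, or -0.10 and -0.05 centred. After centring, 4 genes were higher and 2 lower past 0.5 in WT, and 2 and 2 in *Cd300a-/-*, with 19.3% and 20.9% of all genes in WT and 21.2% and 23.6% in *Cd300a-/-*. *Atp6v0d2*, which passed the expression filter through the SiglecF hi libraries, is among the higher genes in each of these counts. Apart from it, *Atp6v1a*, *Atp6v1c1* and *Atp6v1h* in WT and *Atp6v1c1* in *Cd300a-/-* were higher after centring. *Atp6v0c*, the subunit of the rotating ring, was the most abundant, at 1757 TPM (WT) and 1739 TPM (*Cd300a-/-*) in SiglecF hi cells, next to 1201 TPM (WT) and 958 TPM (*Cd300a-/-*) in SiglecF lo cells. Its ratio was 0.55 (0.51 to 0.59) in WT and 0.86 (0.82 to 0.90) in *Cd300a-/-*. *Atp6v0d1* was at 303 TPM (WT) and 301 TPM (*Cd300a-/-*) in SiglecF hi cells, next to 315 TPM (WT) and 299.8 TPM (*Cd300a-/-*) in SiglecF lo cells, with ratios of -0.06 (-0.13 to 0.01) in WT and 0.01 (-0.06 to 0.08) in *Cd300a-/-*. *Atp6v1e1*, a subunit of the stalk, was at 282 TPM (WT) and 297 TPM (*Cd300a-/-*) in SiglecF hi cells, next to 340.0 TPM (WT) and 296 TPM (*Cd300a-/-*) in SiglecF lo cells. Centred, these 2 subunits were lower in SiglecF hi neutrophils, with -0.58 and -0.80 in WT and -0.61 and -0.61 in *Cd300a-/-*.

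*Atp6v0d2* (ENSMUSG00000028238, chromosome 4 from 19876841 to 19922605), an alternative form of the d subunit that is known from osteoclasts and macrophages, had the largest subset ratio of the 44 genes. It was at 32.3 TPM (WT) and 29.5 TPM (*Cd300a-/-*) in SiglecF hi cells, next to 2.29 TPM (WT) and 3.31 TPM (*Cd300a-/-*) in SiglecF lo cells, with 771, 629, 32 and 51 counts. The ratio was 3.34 (2.98 to 3.70) in WT and 2.82 (2.50 to 3.14) in *Cd300a-/-*. In each library its level was below that of *Atp6v0d1*. Of the V1 part, *Atp6v1c1*, a subunit of the stator, was at 151, 157, 72.9 and 54.7 TPM with ratios of 1.04 (0.93 to 1.15) and 1.50 (1.38 to 1.62), in the order used above. *Atp6v1h*, a regulatory subunit, was at 77.7, 75.3, 36.3 and 40.3 TPM. *Atp6v1a*, the catalytic subunit, was at 174, 155, 77.5 and 103 TPM, with a ratio of 1.16 (1.08 to 1.23) in WT and 0.58 (0.51 to 0.65) in *Cd300a-/-*, which is 0.63 and -0.03 centred.

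The other 7 pump genes had subset ratios between 0.15 and 1.05. *Atp6v0b* was at 352, 352, 301 and 289 TPM, and *Atp6v0e* at 142, 138, 127 and 94.0 TPM. *Atp6v1b2*, which forms the hexamer with the catalytic subunit, was at 300.2, 264, 248 and 197 TPM, and *Atp6v1f* at 351, 348, 260.4 and 186 TPM. The accessory proteins *Atp6ap1* and *Atp6ap2*, which help assemble the pump, were at 331, 332, 246 and 241 TPM and at 334, 369, 212 and 178 TPM. *Atp6v1d*, a subunit of the central shaft, had ratios of 0.35 and 0.30. Of these 7 genes, *Atp6ap2* in WT (0.65) and *Atp6ap2*, *Atp6v1f* and *Atp6v0e* in *Cd300a-/-* (1.05, 0.90 and 0.54) were past 0.5, and none of the 7 was after centring. The transcription factors were low, with *Tfeb* at 22.0, 25.1, 20.8 and 21.9 TPM and *Tfe3* at 59.9, 61.3, 38.4 and 54.9 TPM. *Tfeb* had subset ratios of 0.07 in WT and 0.19 in *Cd300a-/-*, and *Tfe3* of 0.63 and 0.16. Centred, they were -0.45 and -0.43 for *Tfeb* and 0.10 and -0.46 for *Tfe3*.

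Markers of macrophages, which also have many lysosomes, were higher in the SiglecF hi libraries. All 10 markers of the list (*Adgre1*, *C1qa*, *C1qb*, *C1qc*, *Csf1r*, *Mrc1*, *Mertk*, *Trem2*, *Apoe* and *Fcgr1*) had a mean TPM over 10, and none was at 0 in any library. They summed to 15799 TPM (WT) and 14792 TPM (*Cd300a-/-*) in SiglecF hi cells, next to 5607 TPM (WT) and 4835 TPM (*Cd300a-/-*) in SiglecF lo cells. In WT 8 of 10 and in *Cd300a-/-* 10 of 10 were higher in SiglecF hi neutrophils past 0.5, against 51.9% and 56.6% of all genes, with a median of 1.51 and 1.29, or 0.99 and 0.68 centred. After centring 8 and 6 of 10 were higher past 0.5, against 19.3% and 21.2% of all genes. *Mertk* was under 10 TPM in both SiglecF lo libraries and so passed the expression filter through the SiglecF hi libraries. Without it 7 (WT) and 9 (*Cd300a-/-*) of 9 were higher past 0.5, or 7 and 5 centred. *Apoe*, the most abundant, was at 8313 TPM (WT) and 8107 TPM (*Cd300a-/-*) in SiglecF hi cells, next to 2637 TPM (WT) and 2109 TPM (*Cd300a-/-*) in SiglecF lo cells. The largest ratios were those of *Mertk* (2.19), *Trem2* (1.72), *Apoe* (1.66), *C1qc* (1.65) and *Mrc1* (1.60) in WT. In *Cd300a-/-* they were *Trem2* (2.36), *Apoe* (1.94), *Mertk* (1.92), *C1qb* (1.43) and *C1qc* (1.35). Neutrophil markers were lower in SiglecF hi cells, as the 8 genes of that list summed to 26543 TPM (WT) and 31231 TPM (*Cd300a-/-*) in SiglecF hi cells, next to 153887 TPM (WT) and 202615 TPM (*Cd300a-/-*) in SiglecF lo cells, with *S100a9* the most abundant. In WT 6 of 8 and in *Cd300a-/-* 8 of 8 were lower past 0.5, against 7.47% and 7.97% of all genes. *Csf3r* (-0.43) and *Itgam* (-0.12) were not past it in WT. The largest ratios of this list in WT were those of *Ly6g* (-4.77), *Retnlg* (-4.36), *Mmp8* (-3.09), *S100a8* (-2.58) and *S100a9* (-2.47), and in *Cd300a-/-* those of the same 5 genes (-4.37, -4.14, -3.40, -2.75 and -2.54). The part of macrophage RNA in the ratios of the lysosomal genes was not tested.

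Other cell types that express SiglecF or these lysosomal genes were looked at in the same way. The 7 eosinophil markers summed to 117, 119, 173 and 87.9 TPM in the order used above. *Ear2* was the most abundant and the one gene with a mean TPM over 10, at 109.8, 113, 171 and 85.9 TPM, and *Epx* had 0 counts in all libraries. The 5 osteoclast markers summed to 85.4, 93.5, 25.4 and 27.0 TPM. *Calcr* and *Oscar* had 0 counts in all libraries and *Acp5*, which macrophages also express, was at 85.0, 92.7, 25.4 and 25.8 TPM. The 2 monocyte markers summed to 335, 279.6, 821 and 757 TPM, with *Ly6c2* the most abundant, whose ratio was -1.48 in WT and -1.64 in *Cd300a-/-*, while *Ccr2*, the other one, was at 65.2, 53.2, 65.2 and 50.6 TPM. The 4 fibroblast markers summed to 1457, 1020.3, 677 and 622 TPM, with *Dcn* the most abundant, and this sum was also higher in the SiglecF hi libraries. In WT, ratios past 1 were found for *Col3a1* (1.25) and *Col1a1* (1.12), while *Col1a1* had 0.26 in *Cd300a-/-*. Of the 3 with a mean TPM over 10, 3 (WT) and 2 (*Cd300a-/-*) were higher past 0.5, against 51.9% and 56.6% of all genes. After centring it was 2 and 0, against 19.3% and 21.2%. The 4 endothelial markers, led by *Pecam1*, summed to 57.9, 79.6, 111 and 38.0 TPM and were highest in WT SiglecF lo neutrophils. Subset ratios past 1 were those of *Pecam1* (-1.27) and *Tie1* (-1.15) in WT and *Cdh5* (1.19) in *Cd300a-/-*. The 5 cardiomyocyte markers, with *Myl2* the highest on average and a *Cd300a-/-* ratio of 1.60 for *Tnnt2*, which was under 10 TPM in both SiglecF lo libraries, summed to 41.5, 62.6, 41.0 and 25.0 TPM, and the 3 lymphocyte markers, with *Nkg7* the highest on average, to 1.37, 1.49, 3.80 and 0.601 TPM. Their part in the results was not tested.

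Lysosomal genes outside the 44 were described from lists. Of other lysosomal hydrolases, 25 of 30 genes in WT and 24 in *Cd300a-/-* were higher in SiglecF hi neutrophils past 0.5, against 51.9% and 56.6% of all genes. After centring 16 were higher and 2 lower in WT and 15 and 3 in *Cd300a-/-*, with 19.3% and 21.2% of all genes higher and 20.9% and 23.6% lower. *Sgsh* and *Aga* were under 10 TPM in both SiglecF lo libraries and so passed the expression filter through the SiglecF hi libraries, and without them it was 23 (WT) and 22 (*Cd300a-/-*) of 28 genes, or 14 and 13 centred. *Plbd1*, a phospholipase B-like protein and the most abundant of these 30 genes, was at 463 TPM (WT) and 501 TPM (*Cd300a-/-*) in SiglecF hi cells, next to 606 TPM (WT) and 610.4 TPM (*Cd300a-/-*) in SiglecF lo cells. It was thus lower in both SiglecF hi libraries. Among the 30 genes the largest WT ratios were those of *Naglu* (2.20), *Dpp7* (2.01), *Acp5* (1.70), *Scpep1* (1.68) and *Sgsh* (1.53). In *Cd300a-/-* they were those of *Acp5* (1.81), *Sgsh* (1.78), *Arsb* (1.74), *Pla2g15* (1.72) and *Naglu* (1.67). Of other cathepsins 2 of 6 had a mean TPM over 10, *Ctse* at 18.1, 24.3, 22.0 and 37.4 TPM and *Ctso* at 27.4, 24.6, 6.73 and 11.3 TPM, in the order used above. *Ctso* had a subset ratio of 1.88 in WT and 1.06 in *Cd300a-/-*. Of other V-ATPase subunits 4 of 11 were over this level. *Tcirg1*, the a3 subunit, was at 236, 197, 73.0 and 75.8 TPM with ratios of 1.68 and 1.36, and *Atp6v1g1*, the most abundant, at 494, 444, 499 and 438 TPM with -0.01 and 0.02.

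Of other lysosomal membrane proteins, 14 of 19 genes in WT and 12 in *Cd300a-/-* were higher in SiglecF hi neutrophils past 0.5, against 51.9% and 56.6% of all genes. After centring 6 were higher and 3 lower in WT, and 5 higher and 6 lower in *Cd300a-/-*, with 19.3% higher and 20.9% lower of all genes in WT and 21.2% and 23.6% in *Cd300a-/-*. *Laptm4b* and *Slc36a1* were under 10 TPM in both SiglecF lo libraries and so passed the expression filter through the SiglecF hi libraries, and without them it was 12 (WT) and 10 (*Cd300a-/-*) of 17 genes, or 4 and 4 centred. *Laptm5* was the most abundant, at 1589 TPM (WT) and 1684 TPM (*Cd300a-/-*) in SiglecF hi cells, next to 1031 TPM (WT) and 1080.0 TPM (*Cd300a-/-*) in SiglecF lo cells. The largest WT ratios were those of *Laptm4b* (2.67), *Slc29a3* (1.77), *Clcn7* (1.60), *Cd63* (1.47) and *Slc36a1* (1.30). In *Cd300a-/-* they were those of *Slc29a3* (1.72), *Laptm4b* (1.45), *Cd63* (1.42), *Clcn7* (1.16) and *Cd68* (1.13). Genes for sorting of hydrolases to lysosomes were higher past 0.5 in 7 of 11 genes in WT and 6 in *Cd300a-/-*, and after centring 2 were higher and 1 lower in WT and 2 and 2 in *Cd300a-/-*. All genes had 51.9% and 56.6% higher, or 19.3% and 21.2% centred. *Rab7* was the most abundant of them, at 749.6 TPM (WT) and 761 TPM (*Cd300a-/-*) in SiglecF hi cells, next to 681 TPM (WT) and 713 TPM (*Cd300a-/-*) in SiglecF lo cells. Ratios past 1 were found in WT for *Gnptab* (1.67), *Igf2r* (1.26), *Gnptg* (1.02) and *Vps35* (1.00) and in *Cd300a-/-* for *M6pr* (1.20), *Gga3* (1.14), *Nagpa* (1.09) and *Igf2r* (1.07). Genes for mTORC1 control at the lysosome were higher past 0.5 in 5 of 9 genes in WT and 7 in *Cd300a-/-*, and after centring 1 of 9 was higher in WT and 1 of 9 in *Cd300a-/-*, with the same shares of all genes to set them against. *Lamtor1* was the most abundant of them, at 233 TPM (WT) and 209 TPM (*Cd300a-/-*) in SiglecF hi cells, next to 141 TPM (WT) and 112 TPM (*Cd300a-/-*) in SiglecF lo cells, and *Lamtor3* in WT (1.11) and *Lamtor2* in *Cd300a-/-* (1.45) had ratios past 1. Of 4 cystatin genes, which code for inhibitors of cysteine cathepsins, 2 had a mean TPM over 10, with *Cst3* the most abundant at 3344 TPM (WT) and 3184 TPM (*Cd300a-/-*) in SiglecF hi cells, next to 2628 TPM (WT) and 1619 TPM (*Cd300a-/-*) in SiglecF lo cells.

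The second comparison asks what loss of CD300a changes within each subset. It uses the same 4 libraries as the first, so the values are not independent of it. In SiglecF lo neutrophils, 2 of 44 genes were higher in *Cd300a-/-* past 0.5 and 3 were lower, against 16.4% and 19.9% of all 6523 genes. In SiglecF hi neutrophils 0 of 44 were higher and 0 lower, against 3.31% and 3.46% of all genes. The 44 genes had a median of -0.18 (SiglecF lo) and -0.15 (SiglecF hi), while all genes had -0.02 and 0.04. In both subsets the share of the 44 genes past 0.5 was thus below that of all genes. The 44 genes had a median of 166 to 303 TPM per library. The background was not matched for level, so these shares do not compare genes of equal level.

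**Figure D3:**
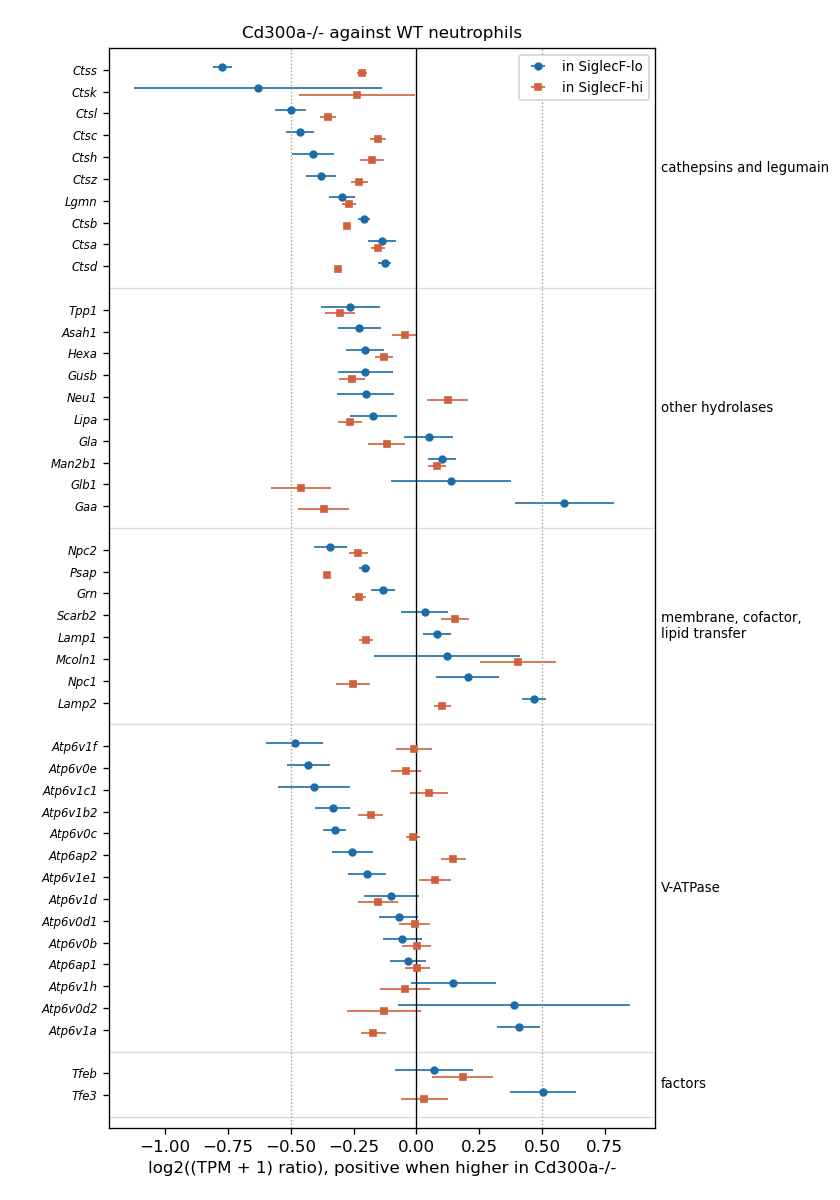
Each row is a gene, with its log2((TPM + 1) ratio of *Cd300a-/-* to WT) in SiglecF lo (circles) and SiglecF hi (squares) neutrophils and its 95% counting interval. Dotted lines mark 0.5 in either direction. The 10 cathepsin and legumain genes lie left of 0 in both subsets, with *Ctss* at -0.77 in SiglecF lo neutrophils.

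All 10 cathepsin and legumain genes had ratios of *Cd300a-/-* to WT below 0 in SiglecF lo neutrophils. Their median was -0.40 (-0.02 for all genes), with a range from -0.77 to -0.13. Of these, 3 were past 0.5, against 19.9% of all genes lower, namely *Ctss* with -0.77 (95% counting interval -0.81 to -0.73), *Ctsk* with -0.63 (-1.12 to -0.14) and *Ctsl* with -0.50 (-0.56 to -0.44). *Ctsk* was under 10 TPM in both libraries compared, at 7.59 TPM (WT, 59 counts) and 4.55 TPM (*Cd300a-/-*, 39 counts). Without *Ctsk* and *Atp6v0d2*, 2 of 42 genes were lower past 0.5. *Ctss* was at 2023 TPM in the WT and 1184 TPM in the *Cd300a-/-* library. All 10 cathepsin and legumain genes were also below 0 after centring and with TMM-scaled CPM. *Ctsl* lay at the threshold and was not past it after centring (-0.49). In SiglecF hi neutrophils the 10 ratios were also below 0, but none was past 0.5. Their median was -0.23 (0.04 for all genes), with a range from -0.35 to -0.15. Ratios below 0 were not particular to these 10 genes, as 32 of the 44 genes had one for the SiglecF hi sort. The medians there were -0.19 for other hydrolases, -0.21 for the membrane and cofactor group and -0.01 for the V-ATPase. For the SiglecF lo sort 30 of 44 were below 0. The share of all genes below 0 is not given here, so these counts have no background. *Cst3*, which codes for cystatin C, had a ratio of -0.70 (-0.74 to -0.66) for the SiglecF lo and -0.07 (-0.10 to -0.05) for the SiglecF hi sort. The cathepsins *Ctse* and *Ctso*, which are not among the 44 genes, went the other way in SiglecF lo neutrophils, with 0.74 and 0.67, and had 0.40 and -0.15 in SiglecF hi neutrophils. Of the 30 other hydrolases outside the 44 genes, 4 were higher and 4 lower past 0.5 in *Cd300a-/-* SiglecF lo neutrophils, with a median of -0.05, against 16.4% and 19.9% of all genes. Of the macrophage markers, 2 of 10 were lower and 1 higher in *Cd300a-/-* SiglecF lo neutrophils past 0.5, near the 19.9% and 16.4% of all genes, with a median of -0.15. *Fcgr1* was at -1.22. For the SiglecF hi sort 9 of 10 macrophage markers were below 0, with a median of -0.13 and none past 0.5, and of 3 fibroblast markers with a mean TPM over 10 *Col1a1* (-0.64) and *Col3a1* (-0.65) were lower past 0.5, as were 3.46% of all genes. The 8 neutrophil markers had a median of 0.51 (SiglecF lo) and 0.23 (SiglecF hi), with *Ly6g* at 1.43 and *Mmp8* at 1.41 in SiglecF lo and *Ly6g* at 1.82, *Retnlg* at 1.20 and *Mmp8* at 1.10 in SiglecF hi neutrophils. The endothelial genes *Pecam1* (-1.82), *Tie1* (-1.27) and *Cdh5* (-1.26) were lower in *Cd300a-/-* SiglecF lo neutrophils. The part of other cells, and of the share of neutrophils, in the cathepsin ratios was not tested.

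Of the other groups, 2 genes were past 0.5. *Gaa* (ENSMUSG00000025579, chromosome 11 from 119158713 to 119176280) was higher in *Cd300a-/-* SiglecF lo neutrophils, with 0.59 (0.39 to 0.78), and so was *Tfe3*, with 0.50 (0.37 to 0.63), just past 0.5. No other hydrolase was past 0.5, with a group median of -0.19 (SiglecF lo) and -0.19 (SiglecF hi). In the membrane and cofactor group *Lamp2* had 0.47 (0.42 to 0.51) in the SiglecF lo comparison and *Mcoln1* 0.41 (0.25 to 0.56) and *Psap* -0.36 (-0.37 to -0.34) in the SiglecF hi comparison, all within 0.5. The V-ATPase genes lay between -0.49 and 0.41 for the SiglecF lo sort and between -0.18 and 0.15 for the SiglecF hi sort. The ratio farthest from 0 in SiglecF hi neutrophils was that of *Glb1*, -0.46 (-0.58 to -0.34), from 52.4 TPM in WT to 37.8 TPM in *Cd300a-/-*. Outside the 44 genes, *Laptm4b* had a ratio of 1.03 (0.53 to 1.53) in SiglecF lo neutrophils, the one gene of these lysosomal lists with a mean TPM over 10 and a genotype ratio past 1. It was low in both libraries compared, at 2.51 TPM (WT, 25 counts) and 6.19 TPM (*Cd300a-/-*, 68 counts).

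A difference of the genotype ratio between subsets was to be described where both ratios lay past 0.5 in opposite directions or the difference was past 1. None of the 44 genes met this, against 9.37% of all genes. *Gaa* came closest, with 0.59 (SiglecF lo) and -0.37 (SiglecF hi), a difference of 0.96 (0.74 to 1.18), and it was singled out after its values were seen. The median difference of the 44 genes was -0.05 and that of all genes -0.05. Whether the genotype acts differently in the subsets was not tested.

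Promoters of the genes were searched for the letters that TFEB-type factors are known to bind. RefSeq promoters (GRCm38.p6, 250 bases before to 50 after the start) matched 36 of the 44 genes by symbol, some with more than 1 promoter, and *Ctsb*, *Ctsh*, *Asah1*, *Npc1*, *Atp6v0d2*, *Atp6v1c1*, *Atp6v1h* and *Atp6v1b2* had no entry. CACGTG, which reads the same on both strands, was in a promoter of 13 of 36 (36.1%) of these genes, against 2187 of 27025 genes (8.09%) in all and 12.7% of the 5271 genes with a mean TPM over 10. TCACGTGA was found in 7 of 36 (19.4%), against 304 of 27025 genes (1.12%) and 2.86% of the 5271 genes with a mean TPM over 10. GTCACGTG or its reverse complement was in 9 of 36 (25.0%), against 689 of 27025 genes (2.55%) and 5.71% of the 5271 genes with a mean TPM over 10. The longer motifs contain the shorter one, so the 3 counts are not independent. Such sites were already known from promoters of many lysosomal genes, so the shares describe these promoters and are not a test. By role, CACGTG was found for 4 of 8 cathepsin and legumain, 3 of 9 other hydrolase, 2 of 7 membrane and cofactor and 4 of 10 V-ATPase genes. TCACGTGA was found for *Ctsa*, *Ctsd*, *Gla*, *Mcoln1*, *Atp6v0d1*, *Atp6v0e* and *Atp6v1a*. Whether the motifs bear on the ratios was not tested. A match describes the letters and is not a measured binding site.

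The stretches below are those in which TCACGTGA lies wholly before the start, with up to 20 bases on each side. In *Atp6v0d1* and *Atp6v0e* it does not lie wholly before the start. The stretch of *Lamp1*, which holds 4 CACGTG, was added after its sequence was seen. Capitals mark the motif, and each sequence runs 5′ to 3′ along its gene. On GRCm38.p6 they are *Ctsa* chr2:164833740-164833772 (plus strand), *Ctsd* chr7:142387899-142387946 (minus strand), *Mcoln1* chr8:3500453-3500500 (plus strand), *Lamp1* chr8:13159080-13159160 (plus strand), *Atp6v1a* chr16:44139364-44139411 (minus strand) and *Gla* chrX:134601173-134601253 (minus strand).
Ctsa: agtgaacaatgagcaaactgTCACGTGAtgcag
Ctsd: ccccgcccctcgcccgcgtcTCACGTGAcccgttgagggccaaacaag
Mcoln1: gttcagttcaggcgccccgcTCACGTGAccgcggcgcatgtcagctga
Lamp1: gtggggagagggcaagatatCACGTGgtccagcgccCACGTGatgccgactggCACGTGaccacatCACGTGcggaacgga
Atp6v1a: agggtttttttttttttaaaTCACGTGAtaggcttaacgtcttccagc
Gla: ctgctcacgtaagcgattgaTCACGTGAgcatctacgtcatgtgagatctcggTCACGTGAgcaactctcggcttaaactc

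Of the 44 genes, 12 overlap another gene in the files, and whether counting used strand is not stated, so reads of overlapping genes cannot be told apart. For 2 genes the partner was not small. *Npc1* overlaps *Rmc1* on the other strand, with a mean TPM of 50.3% of its own, and *Ctsa* overlaps *Pltp* on the other strand, with 40.6%. For the other 10 genes it was at most 4.66%.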

How the data were processed

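RNA was extracted with ISOGEN, selected for poly(A), prepared with the NEBNext Ultra II kit and sequenced in pairs on a NextSeq, and CLC Genomics Workbench gave TPM. The submitters' processing notes name GRCm39, and 564 of 25600 matched identifiers lie at their GRCm38 position in GENCODE M21. The annotation release, mapping settings and strand setting are not given in the sources used here. The authors deposited a count per gene, not normalized and in whole numbers, with no statement on single reads or pairs. The authors deposited TPM, which is normalized for gene length and has an equal sum in all libraries. The deposited RPKM, normalized for length and depth, was not used. The deposited signal named CPM, which is scaled by 1 factor per library, was not used either.

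Groups came from the labels. The log2((TPM + 1) ratio) was computed for each gene and comparison, with a 95% Poisson interval from the counts, and no test was run because each group has 1 library. Genes with a mean TPM over 10 in the 4 libraries formed the background, and a log2 ratio past 0.5 counted as higher or lower. Alternatives were a pseudocount of 0.1, CPM scaled by TMM (with edgeR 4.0.16 under R 4.3.3, and with factors 1.13, 1.12, 0.911 and 0.866 for WT SiglecF hi, *Cd300a-/-* SiglecF hi, WT SiglecF lo and *Cd300a-/-* SiglecF lo), centring on the median of all genes, a log2 threshold of 1, other backgrounds, and sums without the most abundant gene. All 44 genes are named, with TPM in every library where the mean TPM was over 100 or a ratio was past 1. From each other list, the most abundant gene and up to 5 genes per comparison with a mean TPM over 10 and a ratio past 1 are named. For cell type markers the sum and genes at 0 are given too. The genes and lists were chosen with earlier results of these data known, and 3 genes of the lists are not reported here and enter no list count or sum. Python 3.11.15, numpy 2.4.6, pandas 2.3.3, scipy 1.17.1 and matplotlib 3.10.9 were used, and the calculations were tested on simulated counts.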

Additional observations from a re-analysis of the deposited data

How the results depend on the processing

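No paired analysis was run. Each group has 1 library, so leaving out a library would remove a whole group. The median of the 44 genes kept its direction in all 4 comparisons under a pseudocount of 0.1, TMM-scaled CPM and centring. With TMM-scaled CPM the subset median was 0.41 in WT and 0.44 in *Cd300a-/-*, with 21 and 20 genes higher and 2 and 2 lower past 0.5. The median of all genes on this scale was 0.002 in WT and 0.05 in *Cd300a-/-*. Their share past 0.5 on this scale is not given here, so the TMM counts have no background. Centring gave 0.42 and 0.40, with 21 and 18 higher and 2 and 3 lower. Both take out the shift of all genes between the subsets. A log2 threshold of 1, which takes in fewer genes by construction, left 21 genes higher in WT SiglecF hi neutrophils and, between genotypes in SiglecF lo neutrophils, 0 higher and 0 lower. The share of all genes past 1 is not given here, so these counts cannot be set against a background. Of values past 0.5, the sign turned with TMM-scaled CPM for the subset median in *Cd300a-/-* of the V-ATPase (-0.015) and its V0 part (-0.033), for that of the accessory proteins in WT (-0.0019), and in *Cd300a-/-* for *Man2b1* (-0.054) and *Atp6v0e* (-0.033). With centring it turned in *Cd300a-/-* for the median of the V-ATPase (-0.051), V0 (-0.069) and V1 (-0.033), and for *Man2b1* (-0.087), *Atp6v0e* (-0.069) and *Atp6v1a* (-0.033). For the difference between subsets, a looser criterion was added after the values were seen, namely opposite directions with both counting intervals clear of 0. It took in 7 of 44 genes (15.9%) instead of 0, and 15.7% of all genes, so the share of the 44 genes was near the background. Of the single-gene ratios, 175 stayed within their counting interval with a pseudocount of 0.1, 83 with TMM-scaled CPM and 72 with centring, and 1, 93 and 104 moved beyond it, some with a change of sign. Counting ratios within 0.5 too, TMM-scaled CPM and centring turned the sign of the subset ratio of 10 and 10 genes in WT and 13 and 14 in *Cd300a-/-*, and of the genotype ratio of 0 and 0 genes in SiglecF lo and 2 and 3 in SiglecF hi neutrophils. They also turned the WT medians of the V-ATPase (-0.11 and -0.10), V0 (-0.31 and -0.30), V1 (-0.11 and -0.10) and the factors (-0.18 and -0.18), and the *Cd300a-/-* median of the factors (-0.40 and -0.44). Depth limits *Ctsk* and *Atp6v0d2* most, with 59 and 32 counts in WT SiglecF lo neutrophils.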
